A study of Mus musculus with 19 samples.

Results

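The Csf3 Serpinb2 Inhba cells were a rare set of cells at the tenotomy site of burn/tenotomy mice that carried transcripts of at least 3 of 5 genes known from acutely inflamed myeloid cells. They were chosen by their transcripts in droplet-based single-cell RNA sequencing (10x Genomics), in which each captured RNA molecule is counted once by its unique molecular identifier (UMI). A barcode was taken as a cell with at least 500 detected genes and at most 25% mitochondrial UMIs. A Lyz2 cell was a cell with at least 3 UMIs of the myeloid gene Lyz2 and none of Pdgfra, a stromal gene, or Cdh5, an endothelial gene. A member was a Lyz2 cell with at least 1 UMI of at least 3 of the 5 genes Csf3, Serpinb2, Il1a, Nos2 and Inhba. The rule found 99 members among 39541 cells of 19 libraries, beside 17200 other Lyz2 cells. Of the 99 members, 51 came from day 3, 44 from day 7 with the CD47-activating peptide p7N3, and 4 from day 7 without it. Since these genes chose the cells, their levels and the numbers of members are given as descriptions, and their own tests are not read as results.

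The study profiled the tenotomy site by single-cell sequencing at day 0, at day 3, day 7 and day 21 after injury and at day 7 after p7N3, to follow the cells that come before heterotopic ossification, the formation of bone in soft tissue. All groups were labelled as given a partial-thickness scald burn over 30% of the body surface with an Achilles tenotomy, the day 0 libraries included. The study's text, however, describes the first time point as taken before injury. The p7N3 group also received 10 mg/kg of the peptide into the peritoneum each day from 3 days before to 3 days after injury. The day 7 group without peptide had no vehicle named in its labels, whereas the study's text calls its comparison mice PBS treated. Day 3 had 3 libraries and the other groups had 4 each. The wild-type mice were young adult male C57BL/6J mice. The labels name C57 and LysmCre/Tgfb1fx/fx mice for the model as a whole, without giving the genotype of a library. In that strain the Lysm promoter drives Cre in myeloid cells, not in macrophages alone. The labels name no mouse for a library, while the study's text says that replicates served to gauge how mice vary, so p-values here measure the spread between these libraries. The labels of p7N3 replicate 4 give no day of harvest. Replicate 4 libraries were labelled in another form than replicates 1 to 3, and day 3 had none. The tissue was digested with collagenase and dispase, and no sort on surface markers preceded the capture. The kept cells of a library held between 3019467 and 5383855 UMIs at day 0, 25243407 and 33704901 at day 3, 33235893 and 39870492 at day 7, 25386054 and 35450868 after p7N3, and 11064153 and 29233343 at day 21.

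As background, macrophages and monocytes that meet microbial products, dying cells or cytokines such as IL-1 and TNF activate the transcription factor NF-kB, which drives a first wave of cytokines and chemokines. Csf3 encodes G-CSF, the growth factor of neutrophils, and Il1a encodes IL-1 alpha, an alarm cytokine. Serpinb2 encodes the plasminogen activator inhibitor PAI-2, Nos2 the inducible nitric oxide synthase, and Inhba the subunit of activin A, a ligand of the TGF beta family that also acts in bone formation. Such cells recruit neutrophils and further monocytes to a wound in its first days.

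The members were unevenly spread over libraries. At day 3 they made up 0.257, 0.825 and 2.52% of the Lyz2 cells in replicates 1, 2 and 3, which were 4 of 1554, 13 of 1575 and 34 of 1349 cells. After p7N3 they made up 2.22 and 0.341% in replicates 1 and 2 and 0.652% in replicate 4, which were 31 of 1397, 6 of 1757 and 7 of 1073 cells, and none of 1268 in replicate 3. Thus 1 library held most of the members in each of these groups. Exact binomial 95% intervals, which cover counting error only, ran from 1.75 to 3.50% in day 3 replicate 3 and from 0.0702 to 0.658% in day 3 replicate 1, so these libraries of 1 group did not overlap. The same held for p7N3 replicate 1 (1.51 to 3.14%) against p7N3 replicate 2 (0.125 to 0.742%), while 0 cells in p7N3 replicate 3 allowed a share of up to 0.237% (3 counts).

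**Figure D1:**
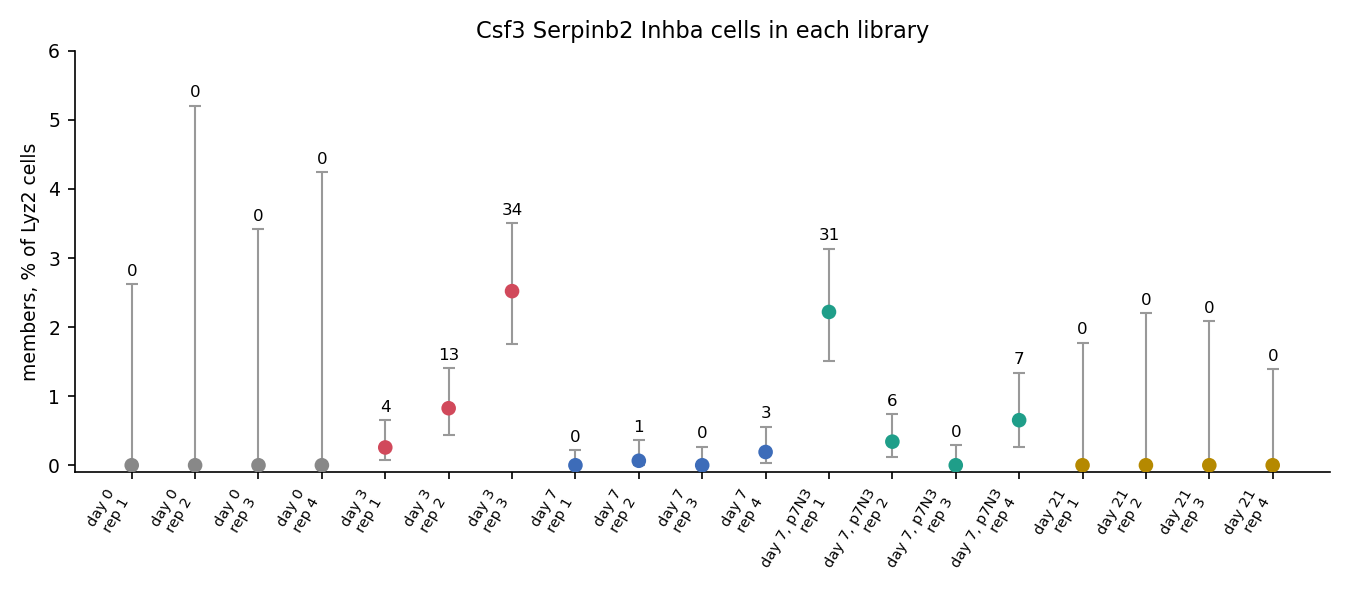
Members as a percentage of the Lyz2 cells of each of the 19 libraries, with exact binomial 95% intervals as bars and the number of members above each point. The libraries of day 3 and p7N3 reach from 0 to 2.52% and overlap, and no member was found at day 0 or day 21.

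At day 7 without peptide, 1 member was found in replicate 2 and 3 in replicate 4, which were 0.0650% and 0.192% of the Lyz2 cells. Replicates 1 and 3 had none. The group means were 1.20% ± 1.18 (SD, n = 3) at day 3, 0.803% ± 0.981 (SD, n = 4) after p7N3 and 0.0641% ± 0.0903 (SD, n = 4) at day 7. The spread within day 3 and within p7N3 was as large as these means, and the shares of p7N3 overlapped with those of both other groups. Each day 3 library lay above each day 7 library, although with at least 4 of the 5 genes day 3 replicate 1 had no member and these groups overlapped. The order of the day 3 and p7N3 means depended on the rule, since with at least 4 of the 5 genes they were 0.282 and 0.519%, and with cells thinned to 4000 UMIs 0.541 and 0.690%. Day 0 and day 21 had no member, but with 69 to 139 and 166 to 263 Lyz2 cells a library they allowed shares of up to 2.16 to 4.35% and 1.14 to 1.81%, above most of the shares measured at day 3. Over the 399 and 810 Lyz2 cells of these groups as a whole the limits were 0.752 and 0.370%, below the means of day 3 and p7N3 and above that of day 7.

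The Lyz2 threshold did not select myeloid cells at day 3. In those libraries 99.8% of all cells, and 99.2 to 100% of the cells with a UMI of Cdh5, carried at least 3 UMIs of Lyz2. Cells with Cdh5 should lack Lyz2 if they are endothelial. Their medians were 44, 34.5 and 51 Lyz2 UMIs in day 3 replicates 1, 2 and 3, against 92, 37 and 31 in the members. After p7N3 the Cdh5 cells had a median of 2 Lyz2 UMIs, and 37.2 to 49.4% of them reached the threshold. At least 3 UMIs of Lyz2 were thus found in nearly every cell at day 3, and in a large share of cells at day 7. How they came to be there, and whether each Cdh5 cell was endothelial, was not tested.

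Other myeloid genes were read against the same background. Tyrobp, an adaptor of activating receptors, had a median of 19.5, 25 and 21 UMIs in the day 3 members and 30, 27 and 31 in the Cdh5 cells of the same libraries. The phagocyte gene Cd68 was found in 75, 84.6 and 94.1% of these members and 90.6, 88.1 and 89% of the Cdh5 cells. In these plain values both lay below the Cdh5 cells, other than the share with Cd68 in replicate 3. The median of Cd68 in replicate 1 was also above them (4.5 against 4 UMIs). Cdh5 cells without Pdgfra were deeper, with medians of 14532, 13071 and 13894.5 UMIs a cell against 7976.5, 8131 and 8502.5 in the members. The values were not scaled to depth, so a lower plain value need not be a lower level. Itgam, which encodes the integrin CD11b, was found in 75, 84.6 and 85.3% of the day 3 members and 50, 52.4 and 60.6% of the Cdh5 cells. The CSF-1 receptor gene Csf1r was found in 100, 92.3 and 94.1% against 76.6, 76.2 and 81.9%. Both were thus in more of the members in each library. Fcer1g, another adaptor of myeloid receptors, had medians of 26.5, 22 and 23.5 UMIs against 21, 18 and 22. The Fc receptor gene Fcgr3 was found in 100, 76.9 and 85.3% against 75.8, 70.6 and 76.4%, and Ptprc, the leukocyte gene that encodes CD45, in 75, 84.6 and 76.5% against 70.3, 65.1 and 74%. The macrophage marker Adgre1 went the other way, in 25, 30.8 and 29.4% of the members against 51.6, 48.4 and 55.1% of the Cdh5 cells. In plain values the markers of the myeloid label therefore disagreed at day 3. Itgam, Csf1r, Fcer1g, Fcgr3 and Ptprc were above the Cdh5 cells in each library, some by little. Tyrobp and Adgre1 were below them, in values not scaled to the greater depth of the Cdh5 cells. The members of day 3 replicates 2 and 3 and p7N3 replicate 1 were also set against the other Lyz2 cells. There 1, 2 and 0 of the 7 listed pan-myeloid genes without Lyz2 were higher in the members. Among all genes with a mean of at least 20 CPM, 54, 44 and 33.9% were higher. The 7 listed genes summed to 3877, 4713 and 1832 CPM in the members and 5734, 5874 and 4940.2 CPM in the other Lyz2 cells. The myeloid label thus rested on a part of its markers, and the cells are called here by 3 genes of the rule. That name fits the day 3 members in part. Csf3 was found in 20, Inhba in 26 and Serpinb2 in 28 of the 51, against Il1a in 49 and Nos2 in 43.

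After p7N3 the same check was clearer. Fcer1g had a median of 29, 19.5 and 13 UMIs in the members of p7N3 replicates 1, 2 and 4, and of 1, 1 and 0 in the Cdh5 cells. Tyrobp had medians of 6, 9 and 6 against 1 in each. Itgam was found in 58.1, 83.3 and 42.9% of the members and 12.9, 6.17 and 10.3% of the Cdh5 cells. These levels were above the background in each of the 3 libraries. Csf1r was found in 51.6, 50 and 42.9% of the members against 24.5, 18.9 and 22%, also above it in each. Adgre1 was found in 22.6, 0 and 14.3% of the members against 14.2, 10.6 and 9.52%, above it in 2 of the 3 libraries.

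Markers of other cell types were partly at 0 and partly detected. The T cell genes Cd3d and Cd3e, the B cell gene Ms4a1, the endothelial gene Kdr, the smooth muscle gene Myh11 and the dendritic cell genes Xcr1 and Clec9a had no UMI in any member. Other genes of the same lists were found. The endothelial gene Cldn5 had 1 UMI in 1 member of day 7 replicate 4, and Pecam1, which myeloid cells also express, was found in 5 of 34 members of day 3 replicate 3, 4 of 31 of p7N3 replicate 1 and 1 of 7 of p7N3 replicate 4. Acta2, a gene of smooth muscle and myofibroblasts, was found in 17 of 34 members of day 3 replicate 3 and 14 of 31 of p7N3 replicate 1, although the summed level of its list was below that of the other Lyz2 cells in each library of the 2 groups. The B cell gene Cd79b was found in 2 of 4, 1 of 13 and 2 of 34 day 3 members, Flt3 and Ccr7 of the dendritic list in 2 of 34 members each of day 3 replicate 3, and the lymphocyte gene Nkg7 in 1 of 7 of p7N3 replicate 4. Col3a1, a stromal collagen, was found in 13 of 13, 31 of 34 and 29 of 31 members of day 3 replicates 2 and 3 and p7N3 replicate 1, and Pf4, a gene of platelets and macrophages, in 13 of 13, 34 of 34 and 21 of 31. The markers at 0 were thus a part of their lists, and the part of RNA from other cells was not tested.

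Granulocyte genes were read against the Cdh5 cells too. S100a8 was found in each member and in 100% of the Cdh5 cells of the day 3 libraries, with medians of 8.5, 25 and 21 UMIs against 15, 12.5 and 23, so at day 3 it did not by itself mark a granulocyte. By a signature of at least 3 UMIs of S100a8 and S100a9 together and at least 1 of the receptor genes Csf3r and Cxcr2, 6 of 13 members of day 3 replicate 2, 11 of 34 of replicate 3 and 2 of 31 of p7N3 replicate 1 counted as granulocyte-like. None of the 4 members of day 3 replicate 1 did. Of the other Lyz2 cells, 600 of 1550, 566 of 1562 and 618 of 1315 did so in day 3 replicates 1, 2 and 3. In p7N3 replicate 1 it was 116 of 1366. Ly6g, the defining marker of mouse neutrophils, was found in 2 members each of day 3 replicates 2 and 3 and in no p7N3 member. A doublet score in the top 3.9% of its library, the multiplet rate of the capture protocol, was found in 2 members of day 3 replicate 3, 5 of p7N3 replicate 1 and 1 of p7N3 replicate 2. At least 20 UMIs of the collagen gene Col1a1 were found in 4 members of p7N3 replicate 1 and 1 of replicate 2.

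Single cells weighed heavily in the sums of small libraries. One member of day 3 replicate 2 held 48996 UMIs, which were 30.3% of all member UMIs of that library. It carried 59 UMIs of Ube2c and 19 of Tpx2, both genes of dividing cells, and all 9 UMIs of Sox10, a gene of Schwann cells, that the members of that library had. The largest member of p7N3 replicate 2 held 35.9% of its library's member UMIs, and those of p7N3 replicates 1 and 4 held 10.3 and 17.9%. Median depths were closer, at 8131 and 8502.5 UMIs a member in day 3 replicates 2 and 3 and 7242, 5992.5 and 4457 in p7N3 replicates 1, 2 and 4. No pair of libraries shared more than 22 barcodes, and no pair shared more than 1.26% of the barcodes of its smaller library.

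The members of the 2 groups met the rule in different ways. Of the 51 day 3 members, 39 carried 3 of the genes, 11 carried 4 and 1 carried all 5. Of the 44 p7N3 members, 18 carried all 5 genes, 16 of them in replicate 1 and 2 in replicate 2. The commonest combinations at day 3 were Serpinb2 with Il1a and Nos2 in 12 members, Il1a with Nos2 and Inhba in 9, and Csf3 with Il1a and Nos2 in 8. Just outside the rule, 32, 50 and 87 Lyz2 cells of the day 3 libraries carried 2 of the 5 genes, against 17, 10, 5 and 15 in p7N3 replicates 1 to 4. In these plain counts the rule drew its line through a more populated region at day 3 than after p7N3. The other Lyz2 cells were also deeper at day 3. Their medians were 9592, 10005 and 9696 UMIs, against 6256, 4939, 4925.5 and 5721 after p7N3. The counts of cells with 2 genes were not scaled to depth.

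**Figure D2:**
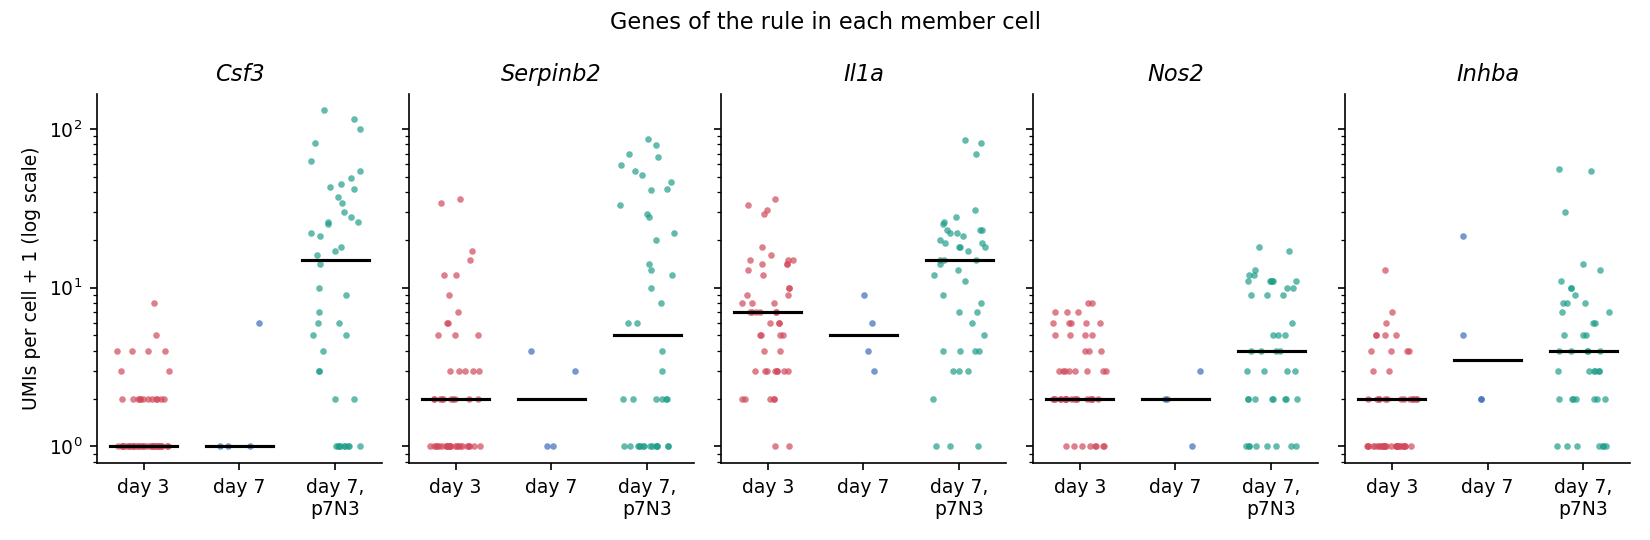
UMIs (plus 1, log axis) of each of the 5 genes in every member cell at day 3, at day 7 without peptide and after p7N3, with the median as a black line. Csf3 has a median of 0 UMIs at day 3 and 14 after p7N3. Nos2 has a median of 1 UMI at day 3 (highest 7) and 3 after p7N3 (highest 17).

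Among the secreted factors, Csf3 differed most in level. Its summed level was 159, 68 and 72.4 CPM (UMIs of a gene scaled to the total of the summed cells) in the members of day 3 replicates 1, 2 and 3, where 20 of 51 members had a UMI and the highest had 7. It was 2929, 2489.7 and 1211 CPM in p7N3 replicates 1, 2 and 4, where 35 of 44 members had a UMI and the highest had 130. The groups did not overlap. In the other Lyz2 cells of the same libraries Csf3 stayed at 2.90 to 11.2 CPM. In the Cdh5 cells without Pdgfra it was at 51.5, 26.7 and 93.7 CPM at day 3, above the members in replicate 3, and at 56.7, 14 and 67.7 CPM in p7N3 replicates 1, 2 and 4, below them. In p7N3 replicate 1 the 31 members held 95.4% of all Csf3 UMIs of the Lyz2 cells. The 34 members of day 3 replicate 3 held 12.4%. Over all cells of these libraries, with or without Lyz2, the members held 44.3 and 4.83% of the Csf3 UMIs.

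Il1a was the most widely detected of the 5 genes at day 3, in 49 of 51 members, with a median of 6 UMIs against 14 after p7N3. Its levels were 286, 915 and 797 CPM at day 3 and 1981, 1778 and 1077 CPM after p7N3, without overlap. Il1a was not particular to the members in day 3 replicate 3, where it had a UMI in 23.7% of the other Lyz2 cells and 27.1% of the Cdh5 cells without Pdgfra. Inhba was found in 26 day 3 members at 31.8, 68 and 176 CPM, and after p7N3 at 704, 332 and 1716 CPM, without overlap. Its level in the other Lyz2 cells was 2.18 to 11.2 CPM.

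Serpinb2, which acts inside and outside cells against plasminogen activators, was at 668, 124 and 425 CPM at day 3 and 2051, 1992 and 1817 CPM after p7N3. It had a UMI in 1.61, 2.05 and 2.74% of the other Lyz2 cells at day 3, where Nos2 had one in 1.29, 1.15 and 4.64%. In the Cdh5 cells without Pdgfra, Serpinb2 had a UMI in 3, 0 and 4.17% and Nos2 in 5, 3.45 and 15.6% at day 3, and Nos2 in 8.51, 6.63 and 9.26% in p7N3 replicates 1, 2 and 4. Nos2 was the gene with the most similar levels, at 255, 216 and 229.8 CPM at day 3 and 625, 213 and 269 CPM after p7N3, and the groups overlapped. It was found in 43 of 51 members at day 3, with a median of 1 UMI. These 5 genes chose the cells, so their levels and the gaps between groups are descriptions only. By the rule the other Lyz2 cells carried fewer than 3 of the 5 genes, so their low levels partly follow from it. In the fit described below, the groups did not overlap for 25.8% of all genes tested.

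The Lyz2 threshold cut through the set in p7N3 replicate 1. There 18 of the 31 members had 3 to 6 UMIs of Lyz2, and the members' median was 5 against 76 in the other Lyz2 cells. Just outside the rule, 25 cells with 1 or 2 UMIs of Lyz2 and 9 with none carried at least 3 of the 5 genes, and 15 and 5 of these carried all 5. The median of Csf3 was 24 UMIs at no Lyz2, 19 at 1 or 2, 21 at 3 to 6 and 5 at 7 or more. Cxcl2, which the rule did not use, had medians of 349, 493, 500 and 257 UMIs in these bands. The receptor adaptor Fcer1g had medians of 11, 14, 22.5 and 31, and Tyrobp of 2, 3, 3 and 13. Cxcl1 had medians of 7, 57, 108.5 and 34. Cells just below and just above the threshold thus had similar medians of Csf3 and Cxcl2, and the median of Cxcl1 was higher with more Lyz2 up to 6 UMIs. In the other libraries few cells lay just below it, 2 in p7N3 replicate 2 and 1 in replicate 4. The genes Pdgfra and Cdh5 left out 6, 4 and 19 cells at day 3 and 5, 1, 0 and 4 in p7N3 replicates 1 to 4.

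**Figure D3:**
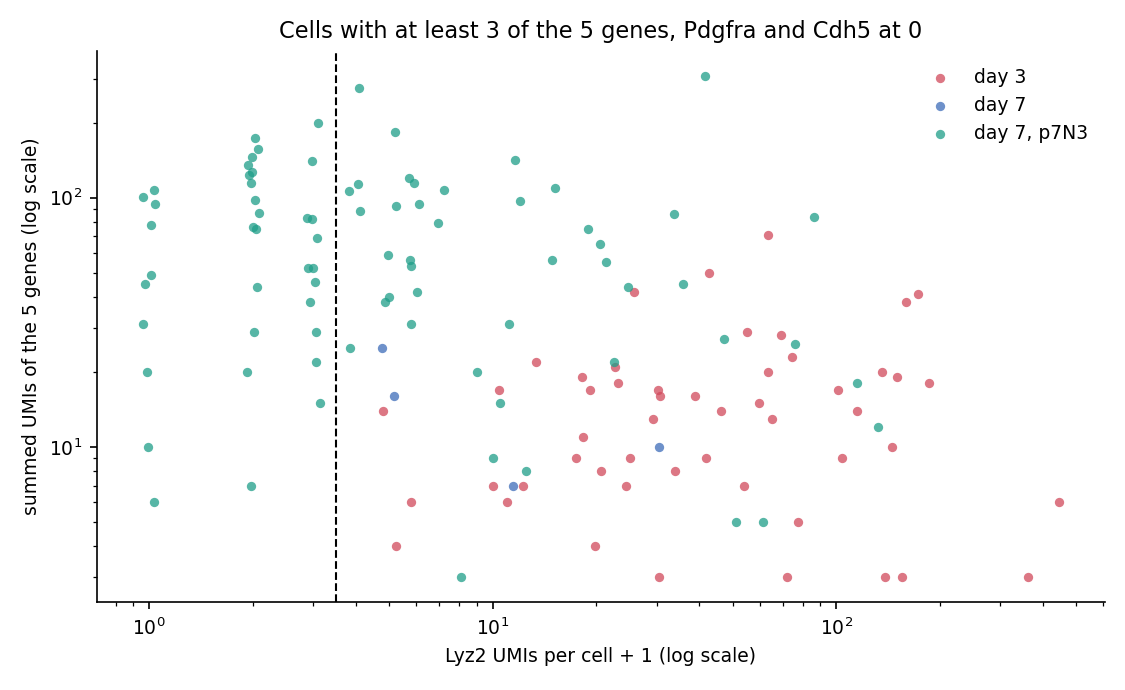
Lyz2 UMIs (plus 1, log axis) against the summed UMIs of the 5 genes for cells that carried at least 3 of them, with the threshold of 3 Lyz2 UMIs as a dashed line. In p7N3 replicate 1 the cells form a cloud that crosses the line, whereas at day 3 they lie above it.

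Outside the rule, Ereg, Areg, Ptges, Ptgs2, Egln3 and Ero1l were among the transcripts with the widest ratios to the other Lyz2 cells. Levels were compared with the other Lyz2 cells of the same library, in the 3 libraries with at least 10 members (day 3 replicates 2 and 3 and p7N3 replicate 1), as a description, since the cells were chosen on the same counts. The widest median ratio was that of Ereg, a ligand of the EGF receptor, at 111, 53.5 and 130 CPM against 2.01, 4.12 and 0.926 in the other Lyz2 cells (median log2 ratio 5.79). Areg, a second such ligand, was at 129.8, 179 and 34.9 CPM against 8.66, 14.1 and 7.31 (3.67). Tnfrsf9, the costimulatory receptor 4-1BB, was at 210.2, 340 and 216 CPM against 5.53, 13.9 and 2.78 (5.25).

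Of the 8 listed prostaglandin genes, 4, 4 and 2 were higher in the members than in the other Lyz2 cells of the 3 libraries. Among all genes with a mean of at least 20 CPM, 54, 44 and 33.9% were higher, but the list was counted without that limit. The 8 genes summed to 2133, 2336 and 4381 CPM in the members against 1196, 1314 and 825 CPM in the other Lyz2 cells. Ptgs2, the inducible cyclooxygenase, was at 1063, 768 and 3218 CPM against 77.6, 127 and 78.2 in the other Lyz2 cells (median log2 ratio 3.78), and Ptges, the synthase that forms prostaglandin E2 from its product, at 185, 488 and 799 CPM against 7.60, 23.5 and 10.7 (4.61). The constitutive cyclooxygenase Ptgs1 was at 0 to 6.18 CPM in the members. Alox5ap, which serves the leukotriene branch, was lower in them, at 859, 1045 and 336 CPM against 1032, 1099.9 and 638. F3, which encodes tissue factor, the starter of coagulation, was at 80.4, 25.2 and 199.7 CPM against 4.69, 7.48 and 10.6 (4.10). Nt5e, the ectoenzyme that forms adenosine, was at 68, 132 and 38 CPM against 6.37, 12.5 and 5.37 (3.40).

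Genes of low oxygen formed another group. Egln3, a prolyl hydroxylase of the hypoxia-inducible factors, was at 68, 315 and 203 CPM against 7.60, 23 and 2.68 (3.78), and Ero1l, an oxidase of the endoplasmic reticulum, at 359, 793 and 314 CPM against 35.7, 89.1 and 23.1 (3.33). Of the 16 listed hypoxia and glycolysis genes, 14, 15 and 15 were higher in the members than in the other Lyz2 cells of the 3 libraries. Among all genes with a mean of at least 20 CPM in the members and the other cells, 54, 44 and 33.9% were higher in the members, beside 13 of 15, 14 of 15 and 14 of 14 of the listed hypoxia genes at that level. Their summed levels were 5695, 10046 and 6819 CPM in the members against 2210.3, 3094 and 2117 CPM. Irg1, which makes itaconate, was at 544, 359 and 165 CPM against 42.8, 106 and 16.8 (3.30). Fth1, the ferritin heavy chain that stores iron, was at 50590.2, 30934 and 46299 CPM at day 3 and 69037, 84556 and 68403 CPM after p7N3, against 11417 to 17317 CPM.

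The remaining genes of the 20 with the widest positive ratios were Stfa3, Cxcl3, AA467197, Mgarp, Mmp12, Sema3c, Saa3, Fam162a and Met, with median log2 ratios between 3.05 and 4.95. Reads of Stfa3 are uncertain, because the stefin A family has near-identical copies. Saa3, an acute phase protein, did not follow in each library, with a log2 ratio of -1.58 in day 3 replicate 2. Lower in the members than in the other Lyz2 cells were genes of antigen presentation and of resident macrophages. Cd74, the chaperone of MHC class II, was at 507, 3236 and 1262 CPM against 5779, 6213 and 9652 (-2.94), and H2-Aa, a chain of MHC class II, at 173, 1133 and 450.2 CPM against 1967, 1989.5 and 3371 (-2.90). The chemokine Ccl8 was at 352, 113 and 47.6 CPM against 1279.5, 823 and 2208 (-2.86). The lectin gene Clec10a, Lpl, Cbr2, Ms4a6b, Tmem176b, H2-Eb1 and Tmem37 had median log2 ratios between -3.29 and -2.70. Lpl did not follow in each library, with a log2 ratio of -0.03 in day 3 replicate 2. None of the 7 listed MHC class II genes was higher in the members in any of the 3 libraries.

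**Figure D4:**
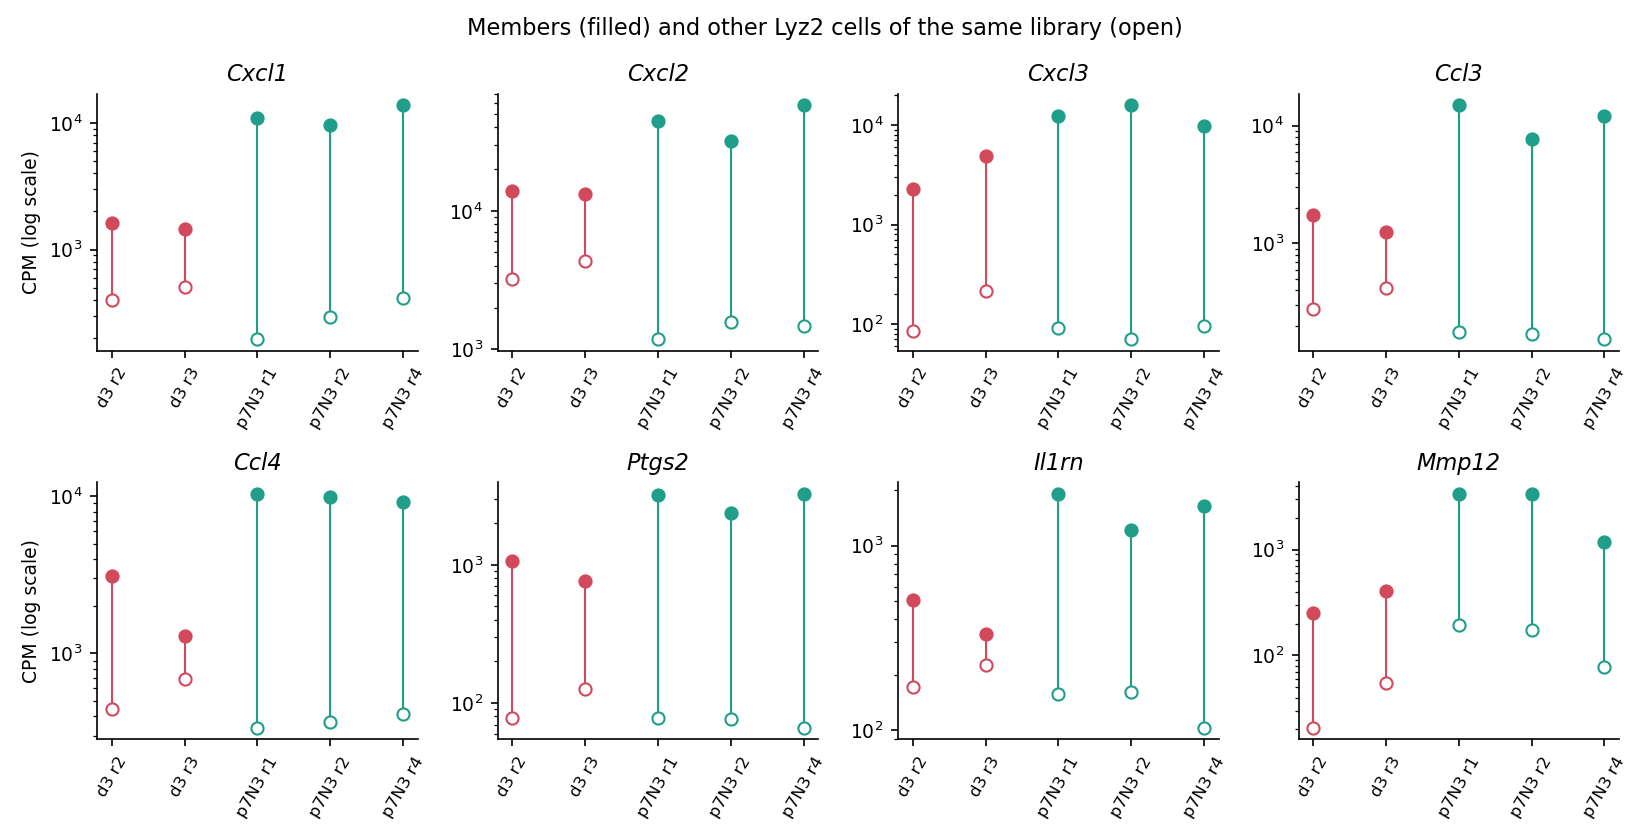
Levels in CPM (log axis) of 8 inflammatory genes in the members (filled) and in the other Lyz2 cells (open) of 5 libraries of day 3 and p7N3. The members lie above the other cells of their library for each gene. The p7N3 members lie above the day 3 members for each of the 8, and the groups did not overlap for 25.8% of all genes tested. Of the 8, Cxcl1, Ccl3 and Mmp12 passed the test between the groups.

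The members of p7N3 were then compared with those of day 3 across all genes, which asks whether cells chosen by the same rule differ otherwise between an early time and a later time under peptide. Counts were summed over the members of each library with at least 5 of them, which were day 3 replicates 2 and 3 and p7N3 replicates 1, 2 and 4, and tested by edgeR's quasi-likelihood test with Benjamini-Hochberg adjustment. Day and peptide cannot be told apart in this comparison, since the day 7 group without peptide had 4 members. Of 2430 genes tested, 15 (0.617%) passed an adjusted p of 0.05, 7 of them (0.288%) higher after p7N3 and 8 (0.329%) lower. Without Csf3 and Serpinb2, which are genes of the rule, 5 rose and 8 fell. All of these 13 lay apart in the groups, as did 626 of the 2430 genes (25.8%), which is the background for any gene that does not overlap. At an unadjusted p under 0.05 there were 254 genes, and the median log2 fold change over all genes tested was -0.07. The count of 15 and its split hung on single libraries. Without day 3 replicate 2 it was 5 (0 higher, 5 lower), without day 3 replicate 3 it was 14 (2 higher, 12 lower), without p7N3 replicate 2 it was 9 (5 higher, 4 lower) and without p7N3 replicate 4 it was 62 (49 higher, 13 lower). DESeq2 called 26 genes, 18 higher and 8 lower.

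The 5 genes that rose were Cxcl1, Ccl3, Mmp12, Pcsk5 and C1qtnf6. Cxcl1, a chemokine that draws neutrophils through the receptor Cxcr2, was at 955, 1614 and 1448 CPM in the members of day 3 replicates 1, 2 and 3 and at 10934, 9651 and 13795 CPM in those of p7N3 replicates 1, 2 and 4. Each p7N3 library lay above each day 3 library, the first of which was not in the fit. Cxcl1 was 8.11-fold higher after p7N3 (log2 fold change 3.02 ± 0.473 (SE), adjusted p = 0.0162). The other Lyz2 cells went the opposite way in plain level, from 374, 400 and 503 CPM at day 3 to 196, 293 and 417 CPM after p7N3, and overlapped. Cells with Cdh5, which can make the chemokine themselves, had a median of 4, 4 and 4 UMIs of Cxcl1 in the day 3 libraries against 7, 15 and 5 in the members, and 0, 0 and 1 against 77, 57 and 48 after p7N3. The gap in medians was thus wider after p7N3 than at day 3 in each library.

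Ccl3, which draws monocytes and other leukocytes through the receptor Ccr1, was at 318, 1756 and 1262 CPM at day 3 and 14925, 7777 and 12079 CPM after p7N3. It was 8.44-fold higher after p7N3 (log2 fold change 3.08 ± 0.526 (SE), adjusted p = 0.0268). The level in the other Lyz2 cells was 237, 280.3 and 418 CPM at day 3 and 178, 171 and 154 CPM after p7N3. Mmp12, the macrophage elastase, was at 668, 254 and 409 CPM at day 3 and 3373, 3319.7 and 1178 CPM after p7N3 (log2 fold change 3.10 ± 0.587 (SE), adjusted p = 0.0435). The other Lyz2 cells also had more Mmp12 after p7N3, at 196, 176 and 77.5 CPM against 4.98, 20.8 and 54.9 CPM at day 3. In the edgeR test without day 3 replicate 2 or without day 3 replicate 3, which left 1 day 3 library, the adjusted p of Cxcl1 was 0.274 and 0.154, that of Ccl3 0.274 and 0.206, and that of Mmp12 0.419 and 0.154, with log2 fold changes between 2.75 and 3.46. Mmp12 also missed the threshold without p7N3 replicate 2 (adjusted p = 0.171). The p7N3 members also had more UMIs of the genes of the rule, and whether the 3 genes differ beyond that was not tested.

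Pcsk5, a protease that activates secreted precursors, and C1qtnf6 rested on few cells. Pcsk5 had 0, 0 and 1 UMIs in the day 3 libraries and 35, 4 and 1 in those of p7N3, of which a single cell held 60, 75 and 100%. C1qtnf6 had 52, 4 and 1 UMIs after p7N3, with 67.3, 75 and 100% in a single cell. Their log2 fold changes were 5.22 ± 0.958 (SE) and 4.29 ± 0.781 (SE), with an adjusted p by edgeR of 0.0383 for each, and neither passed without day 3 replicate 2 or 3. Both were too low to be tested once the 5 members with at least 20 Col1a1 UMIs were left out. None of the 5 stromal genes tested passed. The 6 listed stromal genes summed to 668, 1373 and 1001 CPM in the day 3 members and 14412, 5525 and 1413 CPM in the p7N3 members, with Col1a1 the most abundant in p7N3 replicate 1 and Pdgfra at 0 by the rule. The part of stromal RNA in these values was not tested.

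The 8 genes that fell were 4 erythrocyte genes, Retnlg, Pglyrp1, Il1r2 and Cxcl14, of which Retnlg alone is on the granulocyte list. Hbb-bs, a beta globin, was at 318, 12508 and 10049 CPM in the day 3 members and 130, 71.1 and 101 CPM after p7N3 (log2 fold change -6.55 ± 0.529 (SE), adjusted p = 5.6e-05). All 4 listed erythrocyte genes fell, with a median log2 fold change of -7.93, and their sum was 477, 39101 and 22746 CPM at day 3 against 193, 142 and 202 CPM after p7N3. In the other Lyz2 cells the sum was 2215, 32139 and 13799.9 CPM at day 3 and 1748, 587 and 2574 CPM after p7N3, so the same 2 day 3 libraries were high there as well. In each of day 3 replicates 2 and 3, 1 cell held nearly all of these UMIs, with 1897 and 2966 of Hbb-bs. Without these 2 cells, in edgeR, Hba-a1, Hba-a2 and Hbb-bt missed the threshold (log2 fold changes of -2.12, -2.50 and -3.22), whereas Hbb-bs passed it at -2.65. Day 3 replicate 1, outside the fit, had 318 CPM of Hbb-bs in its members. The alpha globin genes, like the beta globin genes, are near-identical copies, so the split between them is uncertain.

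Among the other 4, Retnlg, a resistin-like gene of neutrophils, was at 95.5, 2034 and 296 CPM at day 3 and 9.51, 0 and 0 CPM after p7N3 (log2 fold change -6.99 ± 1.12 (SE), adjusted p = 0.0446). Pglyrp1, a peptidoglycan-binding protein of neutrophil granules, was at 0, 148 and 116 CPM at day 3 and had no UMI in the p7N3 members of the fit (adjusted p = 0.0218 by edgeR), so its fitted fold is no measure of size. Il1r2, the decoy receptor of IL-1, was at 95.5, 167 and 224 CPM against 19, 23.7 and 0 CPM (log2 fold change -3.26 ± 0.602 (SE), adjusted p = 0.0383). Cxcl14 was at 95.5, 241 and 173 CPM against 0, 23.7 and 33.6 CPM (log2 fold change -4.78 ± 0.926 (SE), adjusted p = 0.0446). These 4 genes missed the threshold in the edgeR test without p7N3 replicate 1 (adjusted p = 0.0786 for Retnlg, 0.138 for Pglyrp1, 0.113 for Il1r2 and 0.138 for Cxcl14) and without p7N3 replicate 2. The sum of the 10 listed granulocyte genes was 2195, 20571 and 7676 CPM in the day 3 members and 6607, 1565 and 1413 CPM in the p7N3 members. S100a8 was the most abundant in each and Ltf was at 0 in all. In the other Lyz2 cells the sum was 3819, 4845 and 7071 CPM at day 3 and 683, 680 and 890 CPM after p7N3, so it was lower there as well. Of the 5 granulocyte genes tested, Retnlg fell and 4 did not pass, with a median log2 fold change of -3.41. Without the granulocyte-like members 6 genes passed, 1 of them higher, and Cxcl1 (log2 fold change 2.21, adjusted p = 0.232), Ccl3 (2.67, 0.16) and Mmp12 (2.74, 0.157) missed the threshold in edgeR.

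The neutrophil-attracting chemokines of the Cxcl1 cluster were among the most abundant inflammatory transcripts of the members. Cxcl2 was at 22177, 13992 and 13185 CPM at day 3 and 44344, 31750.2 and 57872 CPM after p7N3, against 1182 to 4357 CPM in the other Lyz2 cells. It did not pass the test between the groups (log2 fold change 1.84 ± 0.458 (SE), adjusted p = 0.0955), nor did Cxcl3 (log2 fold change 1.93 ± 0.496 (SE), adjusted p = 0.103), which was at 4168, 2263 and 4855 CPM at day 3 and 12376, 15839.5 and 9757 CPM after p7N3. In plain levels the libraries of both genes lay apart in the groups, as they did for 25.8% of all genes. Cxcl5 was uneven, at 0, 24.7 and 119.6 CPM against 1623, 2893 and 0 CPM, and Ppbp was at 0 to 189 CPM. Of the 5 listed genes 1 rose and 4 did not pass, with a median log2 fold change of 1.93, beside -0.07 over all genes.

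The promoters of Cxcl1, Cxcl2 and Cxcl3 are shown because these genes stood together in the members and belong to 1 cluster on chromosome 5. In RefSeq promoters of the build GRCm38.p6, which run from 250 bases before to 50 bases after the start of a gene, each holds the letters GGGAATTTCC, a form of the NF-kB consensus, here in capitals.
Cxcl1: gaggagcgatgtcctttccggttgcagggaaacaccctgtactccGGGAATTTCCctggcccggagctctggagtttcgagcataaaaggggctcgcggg
Cxcl2: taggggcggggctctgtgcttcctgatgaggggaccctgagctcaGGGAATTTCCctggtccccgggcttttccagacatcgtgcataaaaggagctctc
Cxcl3: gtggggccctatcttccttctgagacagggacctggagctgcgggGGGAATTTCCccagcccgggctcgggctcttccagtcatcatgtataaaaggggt
The windows are chr5:90891129-90891228, chr5:90903757-90903856 and chr5:90785983-90786082, all on the plus strand, and the letters begin 71, 97 and 73 bases before the start. The NF-kB consensus, read on both strands, was in 1480 of 32851 promoters (4.51%). The exact letters, chosen after that search, were in 29 (0.0883%), with GGAAATTCCC as their form on the other strand. Read on the minus strand, the same 3 promoters also share GGGAAATTCC, which overlaps these letters by all but 1 base. They were not in the windows of Ppbp, Serpinb2, Il1a, Inhba, Ptgs2, Il1b and Ccl3. These matches describe letters, not binding.

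The CC chemokines were mixed. Ccl4, which attracts leukocytes as Ccl3 does, was at 127, 3110 and 1284 CPM at day 3 and 10389, 9935 and 9185 CPM after p7N3 and missed the threshold (log2 fold change 2.28 ± 0.512 (SE), adjusted p = 0.0726). Ccl9 was at 1018, 810 and 1102 CPM against 2460.1, 5786 and 1649 CPM, while the monocyte attractants Ccl2 and Ccl7 overlapped, at 159 to 686 and 286 to 447 CPM at day 3 and 404 to 1209 and 212 to 1110.3 CPM after p7N3. Of 7 genes tested in this list 1 rose and 6 did not pass, with a median log2 fold change of 0.77. Ccl3 was thus the one CC chemokine of the members to pass.

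Among cytokines, Il1b was at 9195, 5571 and 4464 CPM at day 3 and 5427, 7422 and 6662 CPM after p7N3, and the groups overlapped. Il1rn, which blocks the IL-1 receptor, was at 636, 507 and 334 CPM against 1912, 1209 and 1649 CPM and missed the threshold (log2 fold change 2.06 ± 0.474 (SE), adjusted p = 0.0742). Tnf was at 668, 1162 and 538 CPM against 216, 1091 and 2826 CPM (log2 fold change 0.73 ± 0.904 (SE), adjusted p = 0.884), and p7N3 replicates 1 and 4 were its lowest and highest libraries. Il6 reached 510.4 CPM in p7N3 replicate 1 and had no UMI in p7N3 replicates 2 and 4. None of the 5 cytokine genes tested passed, with a median log2 fold change of 0.98. Csf2 and Il12b were at or near 0, with at most 12.7 CPM of Csf2 in any library.

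Of the 17 listed genes that answer to NF-kB, 10, 10 and 9 were higher in the members than in the other Lyz2 cells of day 3 replicates 2 and 3 and p7N3 replicate 1. Among genes with a mean of at least 20 CPM these were 10 of 17, 10 of 16 and 9 of 17, beside 54, 44 and 33.9% of all genes. Nfkbia, the inhibitor that NF-kB induces, was at 3341, 2566 and 2934 CPM at day 3 and 1772, 2371 and 4979.6 CPM after p7N3, against 1469 to 1728 and 588 to 829 CPM in the other Lyz2 cells. Sod2, the mitochondrial superoxide dismutase, was at 1464, 668 and 1234 against 1966, 3177 and 1514 CPM. None of the 14 genes tested in this list passed, and their median log2 fold change was -0.12, close to that of all genes. Ptgs2 was at 636, 1063 and 768 CPM against 3218, 2347 and 3264 CPM, and missed the threshold (log2 fold change 1.81 ± 0.457 (SE), adjusted p = 0.101). None of 3 prostaglandin genes, 8 genes of nitric oxide, arginine and itaconate and 14 hypoxia genes tested passed, with medians of 0.80, 0.57 and 0.20.

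In the list of plasminogen, coagulation and proteases, Mmp12 rose and 9 of 10 genes tested did not pass, with a median of 1.20. Plaur, the urokinase receptor, was at 541, 315 and 431 CPM at day 3 and 799, 925 and 2927 CPM after p7N3. Thbs1 encodes thrombospondin 1, a ligand of CD47 and an activator of latent TGF beta. It was at 2227, 1286 and 1417 CPM in the day 3 members and 1794, 3865 and 2355 CPM in those of p7N3 (log2 fold change 1.06 ± 0.449 (SE), adjusted p = 0.409), against 648 to 931 and 319.9 to 363 CPM in the other Lyz2 cells. Cd47 itself was at 700, 322 and 434 CPM and 444, 403 and 303 CPM, and Sirpa, its receptor on myeloid cells, at 191, 117 and 170 CPM and 76.1, 237 and 67.3 CPM, overlapping in both cases. Tgfb1 was at 477, 148 and 280.2 CPM at day 3 and 181, 213 and 168 CPM after p7N3. The activin antagonists Fst and Fstl3 were at most 127 CPM and 15.9 CPM. None of the 3 genes tested of the activin and TGF beta list passed, with a median of -0.09.

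Lists of macrophage and monocyte states did not pass either. Csf1r was at 700, 315 and 491 CPM at day 3 and 98.3, 71.1 and 101 CPM after p7N3, apart in level, but missed the threshold (log2 fold change -1.98 ± 0.434 (SE), adjusted p = 0.0726), as did Ccr2, the receptor of monocyte attractants, at 414, 117 and 183 CPM against 22.2, 23.7 and 0 CPM (log2 fold change -2.72 ± 0.619 (SE), adjusted p = 0.0742). None of 9 monocyte genes, 4 MHC class II genes, 7 genes of resident-like macrophages and 7 pan-myeloid genes tested passed, with medians of -1.67, -1.05, -0.88 and -0.58. The same held for 10 genes of lipid-handling macrophages (0.28), 12 pattern recognition and myeloid receptors (0.12), 7 genes of iron and heme (0.34), 11 immediate early genes (-0.10), 5 heat shock genes (0.67), 4 cell cycle genes (-1.09) and 2 interferon-stimulated genes (1.18). Of the marker lists, none of 5 stromal genes (3.22), 3 osteoclast genes (0.63), 2 platelet genes (-1.63) and 1 gene of pericytes and smooth muscle (1.34) passed. The lists of dendritic, endothelial, T and NK, B, mast and Schwann cells had no gene high enough to be tested. With 2 libraries against 3, a list that did not pass is not shown to be alike in the groups.

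A second fit asked which of these differences were not shared with the other Lyz2 cells of the same libraries. It took the members and the other Lyz2 cells as 2 sums from each library, with the library as a block, and tested by edgeR whether the difference between p7N3 and day 3 was larger in the members. The other Lyz2 cells were an unlike mix in the 2 groups. Granulocyte-like were 566 of 1562 and 618 of 1315 at day 3, and 116 of 1366, 56 of 1751 and 32 of 1066 after p7N3. Without such cells 17 genes passed (7 higher, 10 lower), Ccl3 and Cxcl1 among them. Other changes in the mix were not tested. Of 11632 genes tested, 38 (0.327%) passed, 25 (0.215%) higher and 13 (0.112%) lower, and 34 were not genes of the rule. DESeq2 called 30, 25 higher and 5 lower. At an unadjusted p under 0.05 there were 604, and the groups lay apart for 23.4% of all genes. The count was 11 (7 higher, 4 lower) without day 3 replicate 2, 75 (7 higher, 68 lower) without day 3 replicate 3, 47 (22 higher, 25 lower) without p7N3 replicate 1 and 20 (15 higher, 5 lower) without p7N3 replicate 2. Among the chemokines the difference was 3.97 ± 0.553 (SE; adjusted p = 4.29e-09) for Ccl3, 3.55 ± 0.546 (SE; adjusted p = 3.35e-07) for Cxcl1, 3.11 ± 0.551 (SE; adjusted p = 2.83e-05) for Cxcl2 and 2.89 ± 0.549 (SE; adjusted p = 0.000215) for Ccl4, all by edgeR and on the log2 scale. In each case the plain level in the members was higher after p7N3 than at day 3, while the mean of the other Lyz2 cells was lower. Tnf followed at 2.60 ± 0.533 (SE; adjusted p = 0.00112), its level in the other Lyz2 cells being 172, 253 and 302 CPM at day 3 and 42.1, 45.1 and 71.9 CPM after p7N3. Ccl3 and Cxcl1 passed without each of the 5 libraries in turn. Cxcl2 and Tnf missed the threshold without day 3 replicate 2 (adjusted p = 0.194 and 0.157), and Cxcl2, Ccl4 and Tnf did so without day 3 replicate 3 (adjusted p = 0.103, 0.632 and 0.623).

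In this second fit the list of neutrophil-attracting chemokines had 3 of 5 genes higher, with a median difference of 3.11 beside -0.18 over all genes tested, and the CC chemokines had 4 of 11 higher and 2 lower. Mir155hg, the host gene of the microRNA miR-155, was at 0, 6.18 and 6.30 CPM in the day 3 members and 38, 142 and 135 CPM in the p7N3 members, and at 2.04 to 7.00 CPM in the other Lyz2 cells (4.69 ± 1.00 (SE; adjusted p = 0.00218), edgeR). It missed the threshold without p7N3 replicate 1 (adjusted p = 0.183) and without p7N3 replicate 2 (adjusted p = 0.0859). Higher were also 1 of 8 prostaglandin genes, 2 of 12 proteases, 2 of 12 cytokines and 1 of 15 receptors tested, beside 0.215% of all genes. Lower were 1 of 12 genes of lipid-handling macrophages, 1 of 11 of the cell cycle and 4 of 4 of erythrocytes, beside 0.112% of all genes. One further list is not reported here. The cell cycle genes Tpx2 and Ube2c, with Cadm1 and Art3, were lower, and nearly all of their UMIs lay in the single large member of day 3 replicate 2 described above. Ccl24, also lower, had 11 UMIs in the day 3 members of that library, 90.9% of them in 1 cell. The 2 comparisons share their libraries.

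The 4 members at day 7 without peptide were too few for a test. The member of replicate 2 had 3359 UMIs, with 5 of Il1a, 4 of Inhba, 88 of Cxcl2, 47 of Cxcl3 and 24 of Cxcl1. In replicate 4, 1 member had 119 UMIs of Cxcl2, and a second had 181 of Cxcl2 and 5 of Csf3, the one member of day 7 with Csf3. The last had 23297 UMIs but 2 of Cxcl2, with 20 of Inhba and 10 of Col1a1. Thus 3 of the 4 had 88 or more UMIs of Cxcl2, and 1 met the rule with few.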

How the data were processed

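The 19 libraries were made with the 10x Genomics v2 kit for 3′ ends, which marks strand. The authors deposited raw UMI counts per gene, for all 737280 barcodes of the kit in day 0 replicate 1 and for 614 to 3786 barcodes in each other library. Per the study's methods, Cell Ranger aligned reads to mm10. The submitters' processing notes name Cell Ranger, Seurat and both mm10 and GRCh38, while the gene IDs are those of mouse. No column of per-sample values was left out.

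Cells were barcodes with at least 500 of 27998 genes and at most 25% mitochondrial UMIs, and all of these were kept, doublets included. Rows that share a symbol with another were kept apart by gene ID (65 of them). UMIs of the members of a library were summed, and libraries with at least 5 members were compared by edgeR 4.0.16 (limma 3.58.1, R 4.3.3) with TMM factors, filterByExpr, robust glmQLFit and glmQLFTest, and Benjamini-Hochberg adjustment over all genes tested. The design had asked for 10 members a library, which left 1 p7N3 library and no test, so the minimum of 5, which had been listed as another setting, was used. The planned comparison of p7N3 with day 7 had too few members. A second fit had the terms library, member and the interaction of member with p7N3. Levels in the text are plain CPM (UMIs of the gene scaled to the total UMIs of the summed cells), and fold changes come from the fits. Summed member UMIs were 31429, 161734 and 317634 in day 3 replicates 1 to 3 (replicate 1, with 4 members, was in no fit) and 315440, 42173 and 29721 in p7N3 replicates 1, 2 and 4. The limit that 3 counts set is therefore 95.5, 18.5 and 9.44 CPM and 9.51, 71.1 and 101 CPM, and values near these limits rest on a few UMIs. Doublet scores came from Scrublet in scanpy 1.11.5, sums and intervals from pandas 2.3.3, scipy 1.17.1 and numpy 2.4.6, and plots from matplotlib 3.10.9, all under Python 3.11.15. Alternatives were DESeq2 1.42.0 and the settings in the closing section. The fits were tested on simulated data.

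The members and the 297 listed genes (296 matched) were chosen with earlier results of these data known. Named were the listed genes, up to 12 genes in each direction with the largest change among those with an adjusted p under 0.05, groups that do not overlap and a mean of at least 20 CPM (6 for the second fit), and the 20 and 10 genes with the largest and smallest ratio of members to other Lyz2 cells. Genes of the rule and unnamed gene models were left out, and a few genes are not reported here.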

Additional observations from a re-analysis of the deposited data

Results flagged for a closer look

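Differences between p7N3 and day 3 that were not the same in the members as in the other Lyz2 cells, by the interaction test of edgeR, are given here once more as log2 values. Higher in the members were Mir155hg (4.69), Ccl3 (3.97), Cxcl1 (3.55), Cxcl2 (3.11), Ccl4 (2.89) and Tnf (2.60). Lower were Cadm1 (-11.92), Art3 (-11.90), Tpx2 (-11.70) and Ccl24 (-11.66), which had no UMI in the p7N3 members, so that these fitted values are no measure of size, and Ube2c (-5.24) and Hbb-bt (-4.49). Cadm1, Art3, Tpx2 and Ube2c missed the threshold without day 3 replicate 2.

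Of 20 groups of 4 libraries examined, 2 held a library far from the other three, and chance alone gives about 1 in 20. Inhba in the other Lyz2 cells of day 0 was at 11.2 CPM in replicate 4 and at 0 in the other three libraries. This was 4 UMIs in 1 cell, and beside libraries that are all at 0 any value would stand apart. Serpinb2 in the other Lyz2 cells of p7N3 was at 35.4 CPM in replicate 4 and at 1.2 to 4.99 CPM in the other three. In replicate 4, 254 of the 278 Serpinb2 UMIs were in 1 cell.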

How the results depend on the processing

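The count of 15 genes between p7N3 and day 3 members moved with most choices. It was 26 with DESeq2 (18 higher, 8 lower), whose median over all genes was 0.05 in place of -0.07, 112 with no filter on low counts and 9 with at least 10 UMIs in every library. It was 36 without the highest Scrublet scores, 6 without granulocyte-like cells, 8 with at least 10 Lyz2 UMIs, 2 with cells thinned to 4000 UMIs and 62 with replicates 1 to 3 only. Of alternatives chosen after seeing the data, it was 45 without members with at least 20 Col1a1 UMIs and 9 without cells with at least 100 Hbb-bs UMIs. With a library left out it ranged from 5 to 62. The count of 38 in the second fit was 30 with DESeq2 (25 higher, 5 lower; median 0.24 in place of -0.18), 17 with at least 10 UMIs in every library, 17 without granulocyte-like cells, 82 with Lyz2 of at least 1 and 11 to 75 with a library left out. Causes were not tested.

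Cxcl1 passed in 16 of 22 alternatives (log2 fold change 2.06 to 3.42), Ccl3 in 16 (2.67 to 3.82) and Mmp12 in 15 (2.74 to 3.52), all in 1 direction, and in the second fit Ccl3 and Cxcl1 passed in each of 18. S100a8 and Tnf turned direction. S100a8 was at 0.13 without granulocyte-like cells. Tnf was at -1.75 with thinned cells, -0.42 with replicates 1 to 3 only and -0.42 to 1.34 with a library left out. Over all named genes, 503 values kept direction and call, 120 lost and 33 gained the call, and 6 turned.

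No paired fit was possible with 5 members a library, since both groups then share replicate 2 alone. With at least 4 members, the replicate block over replicates 1 and 2 gave 5 genes against 9 with no block, with Tnf at -0.68 and -0.57, and a shared number is not known to mark a shared animal. The mean shares moved by less than 1 SD between libraries, but by over 1.5 times at day 3 with thinned cells (0.541%) and with at least 4 of the 5 genes (0.282%, an alternative chosen after seeing the data), both then below p7N3 (0.690 and 0.519%). The day 7 mean was 0.0419 and 0.0319% in these settings and 0.0403% with at least 10 Lyz2 UMIs, which gave 0.494% after p7N3, with replicate 1 at 0.922%. Without 1 library the mean was between 0.541 and 1.67% for day 3, between 0.0217 and 0.0855% for day 7 and between 0.331 and 1.07% for p7N3. For the gene tests, the rule with at least 4 of the 5 genes and minimums of 10 and 20 members left too few libraries for a test, as did p7N3 against day 7 and its alternatives.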

Other observations

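S100a8 and S100a9, which encode the subunits of calprotectin, were not in the same proportion in the members of both groups. The p7N3 members had 7.18, 10.4 and 13 UMIs of S100a8 for each UMI of S100a9 in replicates 1, 2 and 4. These came from 1802, 52 and 39 UMIs of S100a8 and 251, 5 and 3 of S100a9. The ratios of replicates 2 and 4 thus rest on a few UMIs. The day 3 members had 1.06, 1.74 and 1.66, and the other Lyz2 cells had 1.32 to 1.71 in the libraries of both groups. In p7N3 replicate 1 the level in the members was 5713 CPM of S100a8 and 796 CPM of S100a9. Neither gene passed the test between p7N3 and day 3 members in edgeR (log2 fold change -1.34, adjusted p = 0.643, and -3.41, adjusted p = 0.147), and S100a9 passed without p7N3 replicate 1 (-5.27, adjusted p = 0.00505), with no filter on low counts (adjusted p = 3.32e-06) and in DESeq2 (adjusted p = 0.00679). The Cdh5 cells of the day 3 libraries had medians of 15, 12.5 and 23 UMIs of S100a8 and 13.5, 13 and 18 of S100a9, beside 8.5, 25 and 21 and 8.5, 17 and 12.5 in the members. The ratio itself and the part of background RNA in it were not tested.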
